A study of Mus musculus with 8 samples.

Results

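The cytosolic ribosomal protein genes were followed in ribosome-associated mRNA from mouse spinal cord. They were chosen by symbol, as all protein-coding genes named Rpl or Rps with a number, together with Rpsa, Rplp0, Rplp1 and Rplp2, and this gave 84 of the 38924 genes in the deposited tables. Of these, 52 encode proteins of the large ribosomal subunit and 32 proteins of the small subunit. Another 5 genes with a matching symbol (Rpl6l, Rps12l1, Rps3a2, Rps3a3 and Rps4l) are annotated as pseudogenes and were left out. A filter on low counts kept 80 of the 84 genes for testing. Rpl10l had no count in any library, Rpl39l and Rpl3l had only a few counts, and Rps12 was listed at 0 in all 8 libraries.

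The study used RiboTag mice, in which Cre recombinase switches one allele of Rpl22 to a version carrying a hemagglutinin (HA) tag, so that ribosomes of the Cre-expressing cells can be precipitated with an antibody against HA. Every animal was entered as Rpl22 +/- on a B6.CgxB6.129 background and with wild-type Gars, and the Cre was driven by Chat, which is active in cholinergic cells such as motor neurons. The 4 groups, of 2 animals each, were Cre crushed (animal 35, 18 weeks old, and animal 52, 9 weeks old), no-Cre crushed (animals 51 and 58, both 9 weeks), Cre uncrushed (animals 10 and 3, both 8 weeks) and no-Cre uncrushed (animals 4 and 6, both 8 weeks). Crushed animals had the sciatic nerve of 1 side crushed, while the spinal cord was taken whole, so the injured motor neurons were a part of the tagged cells. The no-Cre animals carry the Rpl22 allele without recombination and give the mRNA that comes down without a tag. The comparisons ask which mRNAs are carried by ribosomes of the cholinergic cells and whether that changes after nerve injury.

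The genotype entry contradicted the title in 2 uncrushed libraries, animal 3 (titled as Cre) and animal 4 (titled as no-Cre), and titles were used here. Their motor neuron marker sums were 31610 CPM in animal 3 and 6199 CPM in animal 4. The other libraries titled as Cre had 18199 to 30675 CPM, and the others titled as no-Cre 1526 to 3324.5 CPM. Mitochondrially encoded RNA made up 3.98% of animal 3 and 59.8% of animal 4. By both measures each lay nearer to the libraries that share its title. Crush could not be told apart from age or from a number that the titles of all uncrushed libraries share. Library totals ran from 4826979 to 11522721 expected counts, larger in the 4 Cre libraries (8215026 to 11522721) than in the 4 no-Cre libraries (4826979 to 6468110). Mitochondrially encoded RNA made up 2.26 to 8.65% of the Cre libraries and 21.6 to 59.8% of the no-Cre libraries. The summed level of 11 motor neuron markers was 18199 to 31610 CPM (counts scaled to the effective library size) with Cre and 1526 to 6199 CPM without. Slc18a3 was not matched, and 1 marker was at 0 in at least 1 library. The sums of glial and vascular markers were lower with Cre: 728 to 1867 CPM against 4770 to 7956 CPM for 10 oligodendrocyte markers, 604 to 776 CPM against 1779 to 3204 CPM for 8 astrocyte markers, 19.7 to 28.9 CPM against 95.3 to 177 CPM for 9 microglial markers and 40.8 to 69.8 CPM against 317 to 492 CPM for 8 endothelial and pericyte markers. Of the astrocyte markers 7 fell with Cre and 1, S100b, rose. S100b averaged 325 and 449 CPM in Cre crushed and uncrushed animals, against 176 and 304 CPM in the matching no-Cre animals. The sum of 6 interneuron markers was 171 to 259 CPM with Cre and 456 to 647 CPM without, and that of 5 blood cell genes 84.4 to 117 CPM with Cre and 209 to 1353 CPM without. Their part in the ribosomal protein results was not tested. P-values below measure the spread between these animals only.

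Each ribosome joins a small subunit, which reads the mRNA, to a large subunit, which forms the peptide bond, and the ribosomal proteins are made in matched amounts from single-copy genes scattered over the genome. Most of their mRNAs start with a short run of pyrimidines at the 5′ end, the TOP motif, through which mTOR and the RNA-binding protein Larp1 set how strongly they are translated. Neurons carry ribosomes and ribosomal protein mRNAs in cell bodies and axons. Rpl22 itself is a surface protein of the large subunit, and in mice its paralogue Rpl22l1 can take its place, while Rpl22 protein restrains the Rpl22l1 mRNA.

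Promoters were read from RefSeq (GRCm38.p6), which gave 76 windows of 300 bases, from 250 before to 50 after the start, for 64 of the 84 members. The pyrimidine run CTTTCC or its reverse complement GGAAAG occurred in 38 of the 76 windows (50.0%), against 26.6% of all 32851 windows, and CCGGAAG or its reverse complement CTTCCGG, a core of ETS factor sites, in 27 (35.5%), against 8.9%. The 2 motifs share no full copy, both occurred in 15 member windows (19.7%, against 2.4% of all), and neither in 26 (34.2%, against 67.0%). Printed below are 85 bases before and 15 from the start onward, with these motifs in capitals, for the paralogue pair Rpl22 and Rpl22l1 and for Rpl36al, Rps10 and Rpl15, whose mRNAs were among those most enriched with Cre. Rpl22 has 2 annotated starts, at chr4:152324351-152324450 (+) and chr4:152325641-152325740 (+). The others lie at chr3:28805423-28805522 (+) for Rpl22l1, chr12:69184053-69184152 (-) for Rpl36al, chr17:27635230-27635329 (-) for Rps10 and chr14:18270972-18271071 (-) for Rpl15.
Rpl22, first start: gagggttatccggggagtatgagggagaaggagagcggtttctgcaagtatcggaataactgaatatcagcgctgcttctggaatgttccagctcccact
Rpl22, second start: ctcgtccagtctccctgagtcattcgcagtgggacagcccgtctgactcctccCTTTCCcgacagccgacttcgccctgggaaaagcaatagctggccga
Rpl22l1: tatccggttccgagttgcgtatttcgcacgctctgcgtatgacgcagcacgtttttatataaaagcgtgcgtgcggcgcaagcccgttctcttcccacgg
Rpl36al: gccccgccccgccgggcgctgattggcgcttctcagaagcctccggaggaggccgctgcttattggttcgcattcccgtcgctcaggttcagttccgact
Rps10: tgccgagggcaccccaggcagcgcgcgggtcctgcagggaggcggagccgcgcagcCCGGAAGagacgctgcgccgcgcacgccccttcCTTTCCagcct
Rpl15: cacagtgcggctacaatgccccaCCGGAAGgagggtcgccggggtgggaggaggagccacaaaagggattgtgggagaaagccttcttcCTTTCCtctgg
In Rps10 and Rpl15 CTTTCC lies just downstream of the start, beginning at the fifth base of the transcript, while the stretches shown for Rpl22l1 and Rpl36al hold neither motif. A match describes the letters in the window and is not a binding site. Of the 32 tested members with CTTTCC or GGAAAG in a window, 22 rose with Cre, with a median log2 fold change of 0.87, and of the 28 tested members with a window but no match 19 rose, with a median of 0.71. Of all 80 tested members 55 rose, and of all genes 28.7%.

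Levels were compared between genes in the deposited TPM, which are scaled by gene length and library. The members spanned from 0 to 472 TPM in the mean of all 8 libraries, with a median of 123 TPM. The highest by this mean were Rps24 (472 TPM), Rpl41 (467 TPM), Rpl38 (431 TPM), Rplp2 (355 TPM) and Rpl36al (282 TPM), but levels and their order differed between groups. Rps24 averaged 764 TPM in Cre crushed, 351 TPM in no-Cre crushed, 630 TPM in Cre uncrushed and 145 TPM in no-Cre uncrushed animals, and Rpl41 averaged 646, 359, 610 and 253 TPM in the same order of groups. Counted on the gene alone, Rpl41 was thus the highest member in both no-Cre groups. With reads on pseudogene copies added, which are described below, the order of the means over 8 libraries changed. Rpl38 then had rank 1 (704 TPM), Rps23 rank 4 (408 TPM) and Rpl36al rank 11 (282 TPM). Rpl36al averaged 514 and 460 TPM in Cre crushed and Cre uncrushed animals, against 96.4 and 57.7 TPM in the matching no-Cre animals. TPM have a fixed sum per library that includes mitochondrial RNA, a larger part of the no-Cre libraries. In CPM the Cre differences were smaller: Rpl36al averaged 81.5 and 106 CPM with Cre against 21.0 and 32.0 CPM without. Rps24 averaged 101 and 125 CPM against 65.2 and 69.2 CPM in the same order. Rps24 is needed for maturation of small subunit RNA, Rpl41 and Rpl38 are small proteins of the large subunit, and Rplp2 is part of the stalk that recruits translation factors. The lowest were Rps12 and Rpl10l at 0, Rpl39l (0.41 TPM), Rpl3l (0.49 TPM) and Rpl7l1 (4.05 TPM). Of these, Rpl10l is a testis paralogue of Rpl10, Rpl3l a muscle paralogue of Rpl3, and Rpl7l1 a Rpl7-like protein of ribosome assembly. Rps12 was at 0 only on the gene alone, and had 106 TPM (rank 69) with its copies. The 84 members held 0.70 and 0.56% of the non-mitochondrial counts in Cre crushed animals 35 and 52, 0.34 and 0.52% in no-Cre crushed animals 51 and 58, 0.52 and 0.51% in Cre uncrushed animals 10 and 3, and 0.44 and 0.40% in no-Cre uncrushed animals 4 and 6.

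Ribosomal protein mRNAs were as a group higher in the precipitates with Cre. With crush as a covariate, 55 of the 80 members tested rose and 0 fell, where 28.7% of all 15208 genes rose and 31.0% fell (59.7% in either direction), at an adjusted p under 0.05 in edgeR's quasi-likelihood test. At an unadjusted p under 0.05 the test gave 58 members, and DESeq2 called 54 higher and 0 lower. The members' median log2 fold change was 0.82, against -0.07 over all genes, and 77 members lay above 0. In 42 members every Cre library was above every no-Cre library, compared with 25.7% of all genes. In these bulk precipitates, fewer cells of a type and less RNA per cell cannot be told apart. Members are short, with a median effective length of 550 bases against 2364 for all genes tested, and the 2021 genes under 1000 bases had a median of 0.47 in the same comparison. With a smooth length trend removed from each library, 41 members rose and 0 fell, and the median was 0.52.

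**Figure D1:**
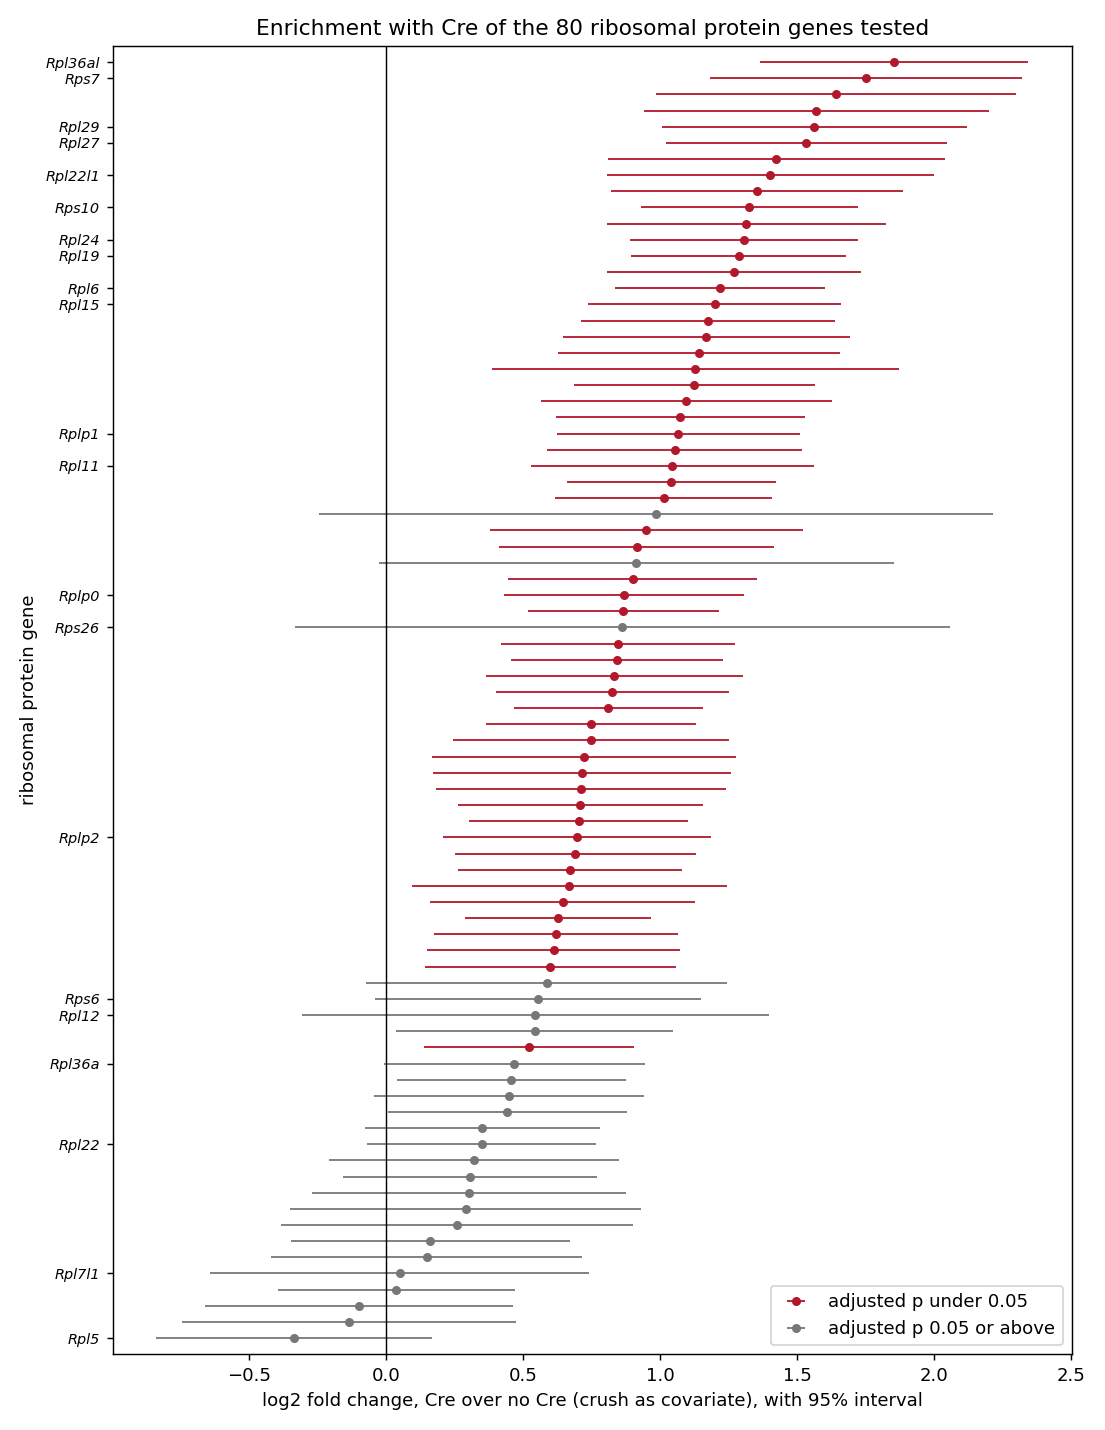
Log2 fold change of Cre over no-Cre libraries (x axis) for the 80 ribosomal protein genes tested, ordered by size down the y axis, with 95% intervals and with names for some members described in the text. The 55 members that rose are in red, Rpl36al is highest at 1.85, and Rpl22 lies near the lower end at 0.35.

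The most enriched member was Rpl36al, a large subunit protein and close paralogue of Rpl36a. It had 97.4 and 65.6 CPM in Cre crushed animals against 14.5 and 27.6 CPM in no-Cre crushed animals, and 102 and 111 CPM in Cre uncrushed animals against 39.7 and 24.3 CPM in no-Cre uncrushed animals. All 4 Cre libraries stood above all 4 no-Cre libraries. Its log2 fold change was 1.85 ± 0.23 (SE, edgeR adjusted p = 1e-05).

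Rps10, a small subunit protein near the mRNA entry, had 65.7 and 54.5 CPM in Cre crushed animals against 18.2 and 25.6 CPM in no-Cre crushed animals, and 69.8 and 56.9 CPM in Cre uncrushed animals against 26.5 and 29.3 CPM in no-Cre uncrushed animals. The groups did not overlap, and the log2 fold change was 1.33 ± 0.19 (edgeR adjusted p = 3e-05). Rps7, an assembly factor for the small subunit that can also bind Mdm2, had 44.3, 42.3, 43.5 and 38.0 CPM with Cre (animals 35, 52, 10 and 3) against 5.83, 15.6, 13.2 and 16.3 CPM without (animals 51, 58, 4 and 6), a log2 fold change of 1.75 ± 0.27. Also among the 10 with the smallest p were Rpl19, Rpl6, Rpl24, Rpl27 and Rpl29, with log2 fold changes from 1.22 for Rpl6 to 1.56 for Rpl29. Rpl24 bridges both subunits.

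By subunit, 36 of 49 large and 19 of 31 small subunit members rose, with median log2 fold changes of 0.85 and 0.72. Of the 4 stalk proteins, where the GTPase factors of translation bind, Rplp0 (0.87 ± 0.21), Rplp1 (1.07 ± 0.21) and Rplp2 (0.70 ± 0.23) rose, while Rpl12 at the stalk base had 0.55 ± 0.40 and did not pass. Of the 5S ribonucleoprotein, the particle that holds back Mdm2 when assembly fails, Rpl11 rose (1.04 ± 0.24) and Rpl5 had -0.34 ± 0.24 (edgeR adjusted p = 0.23). The values for Rpl12 and Rpl5 count the gene alone, while pseudogene copies held 91.0 and 73.7% of their combined counts. Summed with copies, as described below, Rpl12 rose and the Rpl5 value was above 0. At the peptide exit, 6 of 9 members rose, among them Rpl39 (1.32 ± 0.24) and Rpl4 (0.87 ± 0.16). At the mRNA path of the small subunit 4 of 7 rose, among them Rps14 (1.10 ± 0.25) and Rps2 (0.84 ± 0.18). Of 20 members mutated in Diamond-Blackfan anaemia, a red cell aplasia of humans, 15 rose. These subunits and lists are parts of the 80 members, of which 68.75% rose, against 28.7% of all genes. Each count is read against both shares, and no list was tested against the other members.

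Rpl22, the protein that carries the tag, was not among the genes that rose. It had 30.9 and 26.8 CPM in Cre crushed animals against 17.2 and 25.8 CPM in no-Cre crushed animals, and 39.2 and 30.0 CPM in Cre uncrushed animals against 29.6 and 28.0 CPM in no-Cre uncrushed animals. Within each surgery the Cre values were above the no-Cre values, but the 4 Cre and 4 no-Cre libraries overlapped. The log2 fold change over all libraries was 0.35 (95% interval -0.07 to 0.77, edgeR adjusted p = 0.14). Gene totals do not separate the tagged from the untagged allele.

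Its paralogue Rpl22l1 rose with Cre. Rpl22l1 had 27.3 and 17.3 CPM in Cre crushed animals against 5.15 and 7.81 CPM in no-Cre crushed animals, and 23.4 and 22.4 CPM in Cre uncrushed animals against 14.8 and 8.53 CPM in no-Cre uncrushed ones. Every Cre library was above every no-Cre library, and the log2 fold change was 1.40 ± 0.28 (edgeR adjusted p = 0.00061). The ratio of Rpl22l1 to Rpl22 counts was 0.88, 0.65, 0.60 and 0.74 with Cre (animals 35, 52, 10 and 3) and 0.30, 0.31, 0.50 and 0.31 without (animals 51, 58, 4 and 6). It was 2.06-fold higher with Cre, and the difference in mean log2 ratio was 1.32 within crushed and 0.76 within uncrushed animals. A two-sided exact permutation test of 4 against 4 gave p = 0.0286, the smallest it can give over its 70 splits. After adjustment over the 4 paralogue pairs compared it was 0.0571, so the difference did not pass the correction. A pair at that smallest p cannot pass over 4 pairs unless others reach it too, so not passing decides nothing about such a pair.

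The ratio of Rpl36al to Rpl36a was 3.09, 2.41, 2.00 and 2.74 with Cre and 1.18, 1.07, 1.04 and 0.68 without, in the same order of animals. It was 2.6-fold higher with Cre, with every Cre library above every no-Cre library (exact permutation p = 0.0286, adjusted 0.0571). Rpl36a itself had 31.4, 27.2, 50.8 and 40.3 CPM with Cre against 12.3, 25.8, 38.1 and 35.7 CPM without, a log2 fold change of 0.47 ± 0.22 that did not pass (edgeR adjusted p = 0.084). For Rps27l over Rps27 the ratios overlapped (1.80 to 6.68 with Cre, 0.94 to 6.65 without, exact permutation p = 0.66). For Rpl7l1 over Rpl7 they also overlapped (0.055 to 0.11 with Cre, 0.071 to 0.22 without, exact permutation p = 0.14, adjusted 0.19). Rps27l, a p53-responsive paralogue of Rps27, had a log2 fold change of 0.91 ± 0.44 (edgeR adjusted p = 0.087), and Rpl7l1 one of 0.05 ± 0.32.

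**Figure D2:**
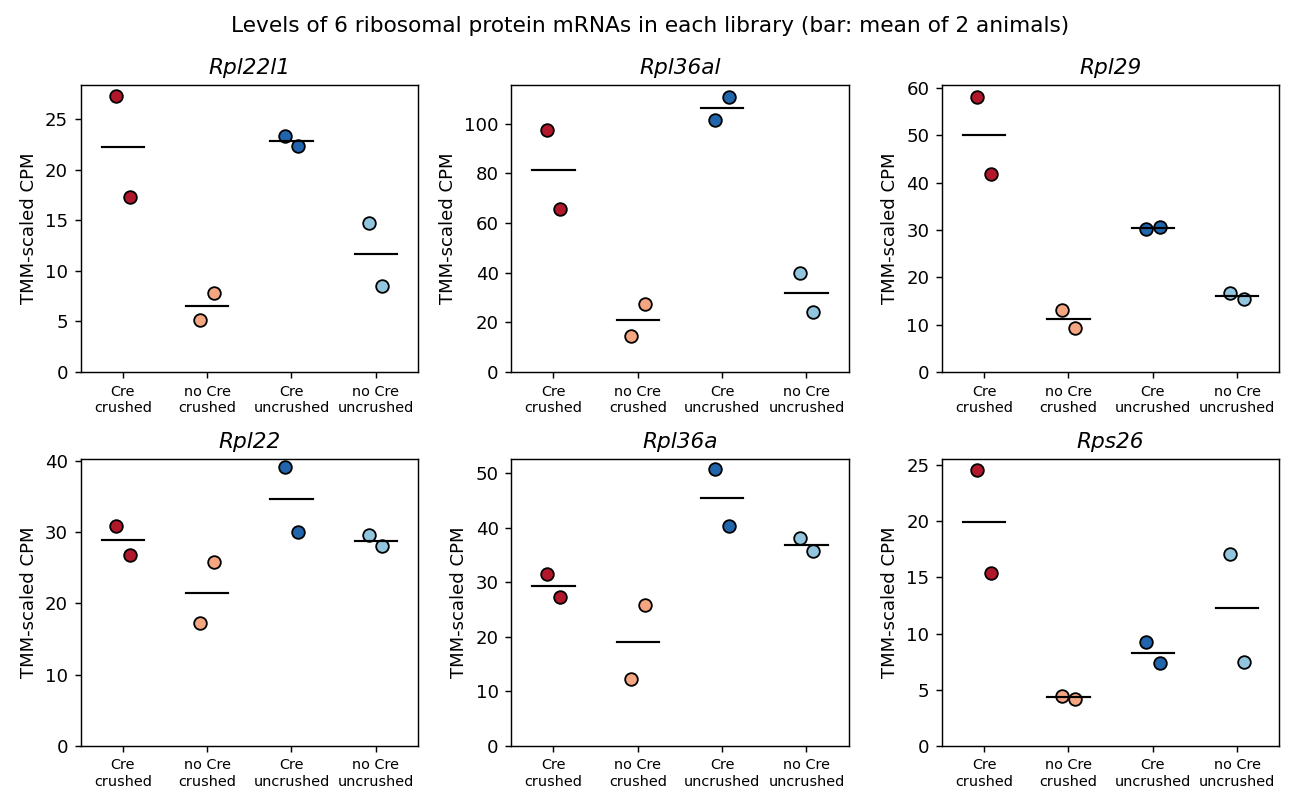
TMM-scaled CPM (y axis) of 6 members in each of the 8 libraries, by group on the x axis, with points for animals and bars for the mean of 2. Rpl22l1, Rpl36al and Rpl29 are above the matching no-Cre animals in all Cre animals, and Rpl22 and Rpl36a overlap over the 8 libraries. Rps26 has its highest mean in the Cre crushed group, which overlaps the no-Cre uncrushed group.

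In crushed animals 45 members rose with Cre and 0 fell (21.7% of all genes rose and 21.3% fell), with a median log2 fold change of 0.92. In 62 members both Cre crushed libraries were above both no-Cre crushed ones, and in 1 below (37.8 and 40.3% of all genes). The 1 was Rpl5, counted without its pseudogene copies. In uncrushed animals 29 members rose and 0 fell (20.6% of all genes rose and 21.7% fell), with a median of 0.70, and 60 members were above without overlap (36.2% of all genes). The uncrushed count was 7 without the 2 libraries whose genotype entry contradicts the title, 10 without Cre animal 10, 13 without Cre animal 3, 17 without no-Cre animal 6, 44 without no-Cre crushed animal 58, 60 under library size alone and 12 under library size without mitochondrial genes. With groups taken from the genotype entry in place of the title, 0 genes of all were called in any comparison. That grouping moves animal 3 to no-Cre and animal 4 to Cre, away from the libraries nearest to them in motor neuron markers. The uncrushed count is lower at a like share of all genes, but whether the members' Cre effect differed with crush is the interaction given further on, where 0 members passed. These 2 comparisons share no library, but the spread behind their calls was estimated over all groups together, so the calls are not independent. In both, 25 members rose, which is 55.6% of the 45 and 86.2% of the 29. The log2 fold changes correlated across the 80 members (Spearman 0.59, a description over genes that share libraries within each comparison).

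After Rpl29, Rpl36al, Rps10, Rpl6, Rpl19, Rps7, Rpl27 and Rpl24, the members with the smallest p in crushed animals included Rpl36 (2.04 ± 0.34). In uncrushed animals they were Rpl36al (1.75 ± 0.34), Rpl14 (1.23 ± 0.26), Rps10 (1.18 ± 0.26), Rpl19, Rpl6, Rpl24, Rpl15 (1.30 ± 0.32), Rpl27, Rps7 and Rps20 (1.06 ± 0.28). Rpl15 is a large subunit protein, and Rps20 lies in the head of the small subunit.

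**Figure D3:**
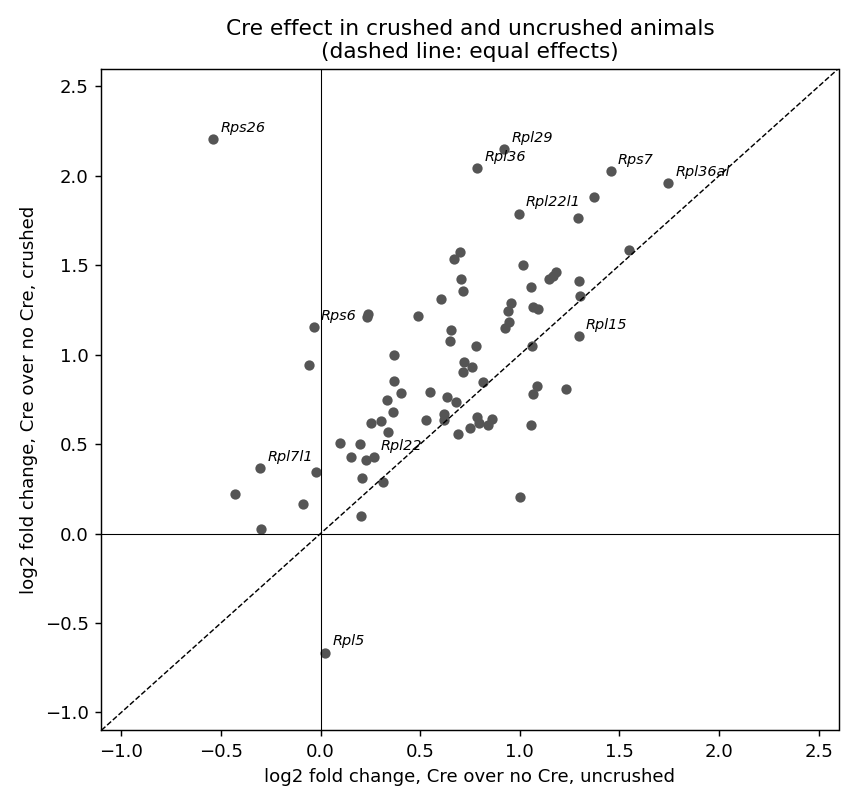
Log2 fold change of Cre over no-Cre for the 80 members in uncrushed animals (x axis) and in crushed animals (y axis), with a dashed line of equal effects. Most points (64 of 80) lie above the line, and Rps26 is far above it (2.21 crushed, -0.54 uncrushed). Rpl5, counted like all points without pseudogene copies, is the member below 0 in crushed animals.

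Libraries of the same group also differed in the members as a block. In 76 of 80 members Cre crushed animal 35 was above animal 52, with a median log2 difference of 0.36, and animal 35 was also the older one. In 74 of 80 members no-Cre crushed animal 51 was below animal 58, with a median difference of -0.69. These shifts were not shared by all genes, whose median differences were 0.01 and -0.03. Without animal 35, the members that rose with Cre in crushed animals numbered 18, and without animal 51 they numbered 25. Without animal 58 they numbered 64, and the median log2 fold change was 1.43, against 0.69 without animal 51 and 0.92 with all libraries. With age as a covariate they numbered 17. Within the groups only animal 35 differed in age from its partner, so that fit does not separate age from this animal. In the comparison over all libraries the count stayed between 45 and 61 when each library was left out in turn.

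Nerve crush moved no member past the threshold. With Cre, 0 of 80 members rose or fell (0.0395% of all genes rose and 0.0329% fell, 0.0723% in either direction), 8 had an unadjusted p under 0.05, and DESeq2 called 0. The members' median log2 fold change, crushed over uncrushed, was -0.17 against 0.03 over all genes, and it was above 0 when scaled by library size alone (0.29, all genes 0.47) or by library size without mitochondrial genes (0.24, all genes 0.43). The median also rested on single libraries: it was -0.004 without Cre crushed animal 52, with 40 members above and 40 below 0, -0.36 without Cre crushed animal 35 and -0.073 without Cre uncrushed animal 10. In 10 members both crushed libraries were above both uncrushed ones (26.1% of all genes) and in 26 below (23.9% of all genes). Motor neuron markers summed to 18199 to 19162 CPM in Cre crushed and 30675 to 31610 CPM in Cre uncrushed animals, and their part in this was not tested. Most of both sums was Nefm, at means of 13554 and 23111 CPM, and Nefh, at 3235 and 5906 CPM. Slc5a7 had 530 and 551 CPM and Chodl 475 and 529 CPM in the same order, and 0 of the 11 markers was called with crush.

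Without Cre, 0 members rose or fell with crush (0.0263% of all genes rose and 0.0592% fell, 0.0855% in either direction). An unadjusted p under 0.05 was reached by 13, and DESeq2 called 2 lower. The median was -0.43 with 72 of 80 members below 0, against -0.03 over all genes, and it was above 0 when scaled by library size alone (0.49, all genes 0.93) or by library size without mitochondrial genes (0.04, all genes 0.43). The members' median minus that of all genes was -0.40 under TMM, -0.44 under library size alone and -0.40 under library size without mitochondrial genes, but it depended on which no-Cre crushed library was kept. Without animal 51 the median was -0.077, with 47 members below 0, and lay at -0.054 relative to all genes. Without animal 58 it was -0.88, with 76 members below 0, at -0.82 relative to all genes, and 9 members fell. Both crushed libraries were below both uncrushed ones in 31 members (19.0% of all genes) and above in 0 (19.9% of all genes). The difference between the 2 crush effects passed for 0 members (0.0% of all genes), with 7 members at an unadjusted p under 0.05, 0 by DESeq2 and a median of 0.27, which was -0.19 under library size alone. The interaction median was -0.092 without no-Cre crushed animal 51, 0.75 without no-Cre crushed animal 58, 0.10 without Cre crushed animal 35 and 0.45 without Cre crushed animal 52, so its sign was not stable.

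Small members were at the low end of both crush effects. The Spearman correlation between effective length and log2 fold change across the 80 members was 0.37 with Cre and 0.46 without, and the 20 shortest members had medians of -0.40 and -0.71, against 0.10 and -0.13 for the 20 longest. The correlations were 0.21 and 0.19 after the length trend over all genes had been removed. Rplp2 had -0.95 ± 0.34 with Cre and -1.07 ± 0.35 without, Rplp1 -0.77 ± 0.29 and -1.01 ± 0.31, and Rpl38 -0.77 ± 0.34 and -1.04 ± 0.36, none of which passed the correction (edgeR adjusted p from 0.28 to 0.51). The lowest values without Cre were those of Rpl34, a large subunit protein (-1.62 ± 0.32, edgeR adjusted p = 0.15), and Rps6 (-1.60 ± 0.35, 0.19). Without Cre, Rpl34 had 7.18 and 11.97 CPM in crushed against 33.1 and 25.9 CPM in uncrushed animals, and Rps6 had 8.27 and 13.5 CPM in crushed against 39.7 and 26.4 CPM in uncrushed animals. In both, counted on the gene alone, the crushed animals were below the uncrushed ones. Pseudogene copies of Rps6, described below, held 87.16 and 85.66% of the combined counts in no-Cre crushed animals, against 70.88 and 71.45% in no-Cre uncrushed ones. The crush effect given for Rps6 leaves those copies out. With Cre the lowest was Rps21, a small subunit protein (-1.11 ± 0.38, edgeR adjusted p = 0.37), at 30.2 and 25.6 CPM in Cre crushed animals against 73.5 and 46.9 CPM in Cre uncrushed animals.

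**Figure D4:**
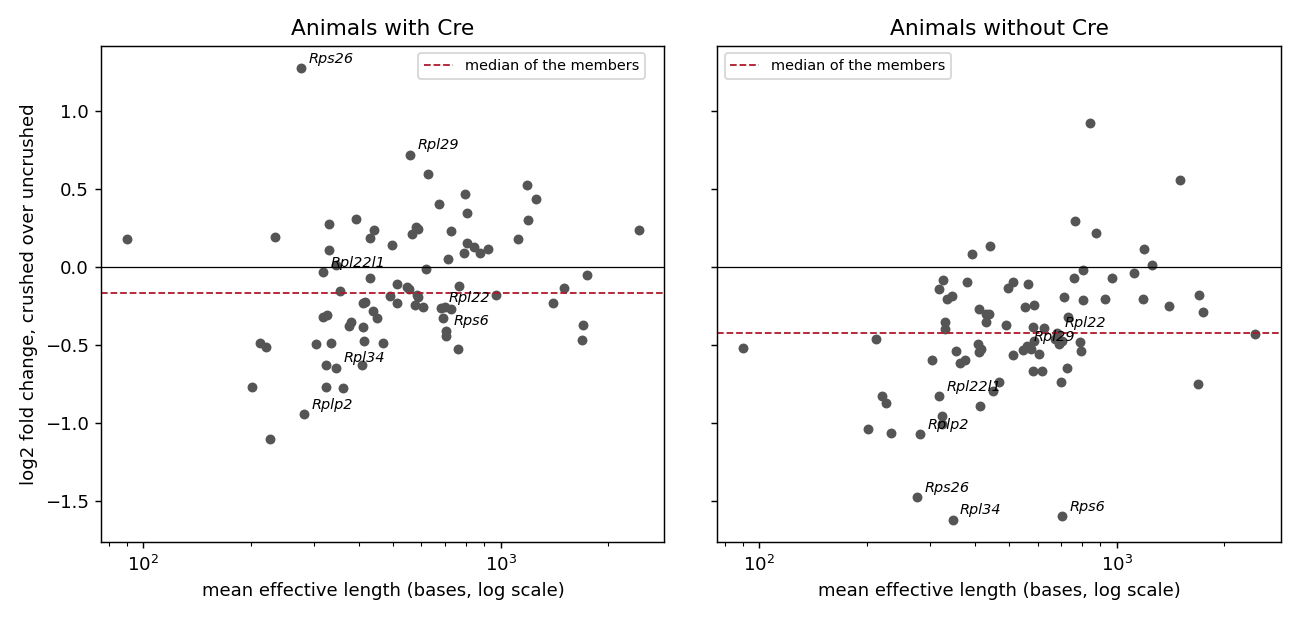
Log2 fold change of crushed over uncrushed animals (y axis) against mean effective length in bases (x axis, log scale) for the 80 members, with Cre on the left and without on the right. The dashed medians lie at -0.17 and -0.43 under TMM scaling (0.29 and 0.49 under library size alone, 0.24 and 0.04 without mitochondrial genes), and shorter members lie lower.

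Rpl29 and Rps26 departed from the members' median. Rpl29, a large subunit protein that is dispensable in mice apart from growth and bone, had 58.2 and 41.9 CPM in Cre crushed animals, 13.2 and 9.31 CPM in no-Cre crushed animals, 30.2 and 30.6 CPM in those with Cre and no crush, and 16.7 and 15.5 CPM in those with neither. Both Cre crushed animals were above both Cre uncrushed animals, and all Cre animals above all no-Cre animals. The log2 fold change with crush was 0.72 ± 0.27 with Cre (edgeR adjusted p = 0.43) and -0.51 ± 0.30 without (0.50). With Cre over no-Cre it was 2.15 ± 0.29 in crushed animals (edgeR adjusted p = 0.00019) and 0.92 ± 0.29 in uncrushed animals (0.024), and the interaction was 1.23 ± 0.40 (0.83). Summed with the pseudogene copies described below, Rpl29 had 63.9 and 48.6 CPM in Cre crushed against 21.4 and 17.5 CPM in no-Cre crushed animals. In uncrushed animals the sums were 33.2 and 34.6 CPM with Cre and 24.1 and 20.8 CPM without, and the Cre effect there no longer passed.

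Rps26, a small subunit protein beside the mRNA exit that contacts bases upstream of the start codon, had 24.6 and 15.4 CPM in Cre crushed animals, 4.47 and 4.16 CPM in no-Cre crushed animals, 9.22 and 7.38 CPM in those with Cre and no crush, and 17.1 and 7.46 CPM in those with neither. It was highest in Cre crushed animal 35 and lowest in both no-Cre crushed animals, while the uncrushed groups overlapped. It rose with Cre in crushed animals, by 2.21 ± 0.43 (edgeR adjusted p = 0.0020). In uncrushed animals its log2 fold change with Cre was -0.54 ± 0.43 (edgeR adjusted p = 0.33), and it turned to 0.21 under library size alone. Its crush effects were 1.27 ± 0.41 with Cre (edgeR adjusted p = 0.325) and -1.48 ± 0.46 without (0.28). The interaction, 2.75 ± 0.61, had the smallest unadjusted p of the members and an edgeR adjusted p of 0.64 over all genes. The crush effects of Rpl22 were -0.26 ± 0.27 with Cre and -0.42 ± 0.29 without, and those of Rpl22l1 -0.03 ± 0.34 and -0.83 ± 0.40. None of these 4 passed, and all 4 were above 0 under library size alone.

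Many reads of the members can be placed equally well on processed pseudogenes, intronless copies of their mRNAs. By sequence, 718 genes taken as pseudogenes matched 78 members at 90% identity or more over at least 70% of their length. Among them, Rps12-ps3 and Rpl10-ps3 are named as pseudogenes but carry a protein-coding biotype. Over the 8 libraries, copies held 91.0% of the combined expected counts for Rpl12, 82.9% for Rpl10a, 82.3% for Rpl31, 81.7% for Rps16, 81.6% for Rps6, 73.7% for Rpl5 and 71.2% for Rpl27, and over 50% for Rpl28, Rps13, Rps23, Rpl10 and Rpl27a as well. For Rps12 they held all: 1186 expected counts lay on its copies, mainly Rps12-ps3 (679) and Rps12l1 (484). The paralogue pair was barely affected, at 0.21% for Rpl22 and 1.31% for Rpl22l1, as was Rps26 (1.24%), while Rpl29 copies held 14.7%. By library, Rpl29 copies held 8.88 to 13.9% with Cre and 25.2 to 46.4% without.

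The transcripts in GENCODE M21 show how alike gene and copy can be. Rps6-ps4 matches Rps6 in all 750 of its bases, and the copy of Rpl12, Gm10275, matches it over 634 of 635 bases. Gm9701 differs from Rps23 at 11 of 427 bases. The coding bases 175 to 234 of Rps23, counted from its start codon, are given with the aligned stretch of the copy, the 5 differing bases being in capitals, since only reads over such bases separate them.
Rps23: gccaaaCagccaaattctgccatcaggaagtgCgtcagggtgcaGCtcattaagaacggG
Gm9701: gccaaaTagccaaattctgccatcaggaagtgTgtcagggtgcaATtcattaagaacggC
Counts of gene and copy were therefore also summed. The Cre effect of the sums passed for 57 members over all libraries, 54 of them among the 55 called alone, for 47 in crushed animals (43 of 45) and for 28 in uncrushed animals (25 of 29). Rpl12 changed most: alone it had a log2 fold change of 0.55 ± 0.40, and with its copies 1.71 ± 0.20 (edgeR adjusted p = 6e-06), at 91.2, 77.5, 89.1 and 90.1 CPM with Cre against 16.4, 31.2, 31.9 and 27.7 CPM without. Rpl5 had -0.34 alone and 0.37 ± 0.16 with its copies (edgeR adjusted p = 0.062). Rps6, the S6 kinase substrate, had 0.55 ± 0.28 alone (0.0995) and 0.64 ± 0.19 with its copies (0.0079). Rps12, which could be tested only through its copies, had -0.57 ± 0.28 (0.090).

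**Figure D5:**
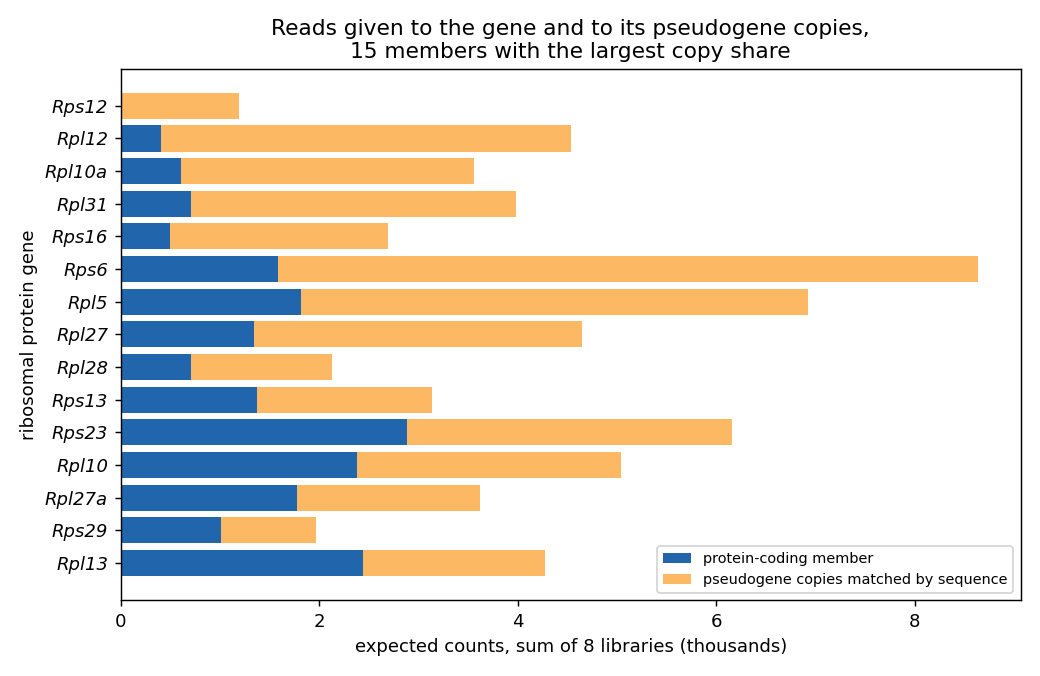
Expected counts summed over the 8 libraries (x axis, in units of 1000) for the 15 members with the largest copy share (y axis), split into the protein-coding gene and the pseudogene copies matched by sequence. For Rps12 the gene itself is listed at 0, and for Rpl12 to Rpl27 copies hold from 91.0 to 71.2%.

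Genes that act with the ribosomal proteins were followed in the same fits. Of ribosomal proteins outside the symbol rule, Fau, which encodes a small subunit protein fused to a ubiquitin-like one (1.13 ± 0.25), and Rack1, the small subunit scaffold for kinases (0.52 ± 0.17), rose with Cre. Both are also counted among 20 other TOP mRNAs, of which 17 rose and 2 fell (28.7% of all genes rose and 31.0% fell), with a median of 1.02. In that list Npm1, a nucleolar chaperone (0.99 ± 0.16), Nap1l1, a histone chaperone (1.76 ± 0.18), and the elongation factor Eef2 (0.69 ± 0.15) rose, whereas Pabpc1, the poly(A)-binding protein (-0.65 ± 0.17), and the elongation factor Eef1a1 fell (-0.91 ± 0.19, edgeR adjusted p = 0.00069), at means of 191 and 151 CPM in Cre crushed and uncrushed animals against 302 and 340 CPM in the no-Cre animals.

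Of 34 tested genes of ribosome assembly and RNA polymerase I, out of 35 listed, 20 rose and 0 fell with Cre (28.7% of all genes rose and 31.0% fell), with a median of 0.77. Nucleolin, Ncl (0.47 ± 0.18), and the nucleolar GTPase Gnl3l (0.87 ± 0.15) rose, while the snoRNP protein Nop56 had 0.32 ± 0.17 (edgeR adjusted p = 0.11). Of 17 tested regulators, out of 19 listed, 6 rose and 4 fell, shares near those of all genes (28.7% rose and 31.0% fell), so that the count is no result about this list. Larp1, the TOP mRNA binder (1.37 ± 0.15), Larp4 (1.02 ± 0.15) and Mtor (0.55 ± 0.17) rose, as did Rps6kb1, Zpr1 and Trp53. Tsc1, an inhibitor of mTOR signalling (-0.67 ± 0.18), the translation repressor Eif4ebp2 (-0.83 ± 0.23), the cell cycle inhibitor Cdkn1a (-1.45 ± 0.35) and the kinase gene Rps6kb2 (-1.01 ± 0.33) fell. With crush, 0 genes of these 4 lists were called in either direction, with or without Cre.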

How the data were processed

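Ribosome-associated mRNA was sequenced from 8 spinal cords, 2 animals in each of 4 groups taken from the titles. Per the submitters' processing notes, the authors used Bowtie2 2.2.0 and RSEM 1.2.12. For build and annotation, nothing was found: not given in the sources used here. The authors deposited, per gene, expected counts (estimated reads, not scaled), TPM (scaled for length and to a fixed sum per library), FPKM (not used here) and lengths of the type other, in bases. How RSEM shared reads between near-identical genes bears on every member with pseudogene copies.

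Symbols were matched for 37607 of 38924 identifiers (96.6%) and biotypes taken from GENCODE M21. Expected counts were rounded and fitted with edgeR 4.0.16 in R 4.3.3: filterByExpr (minimum count 10, minimum total 15; 15208 genes), TMM scaling, 1 mean per group over all 8 libraries (4 residual degrees of freedom), quasi-likelihood tests, two-sided, Benjamini-Hochberg over all genes, called at 0.05. Values after ± are standard errors. With the scaling, 3 counts were worth 0.19 to 1.17 CPM. Copies were matched with blastn 2.17.0. The fit was tested on simulated data. DESeq2 1.42.0, other scalings, filters, groupings, covariates, copies and length offsets (loess span 0.5) were alternatives, the sequence-matched copies being added after the data were seen.

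The members and lists were chosen with earlier results of these data known. Named genes were Rpl22, Rpl22l1, Rpl29, Rps26 and the paralogues, up to 10 called members per comparison and direction by p, the 5 highest and 5 lowest by mean TPM, members not found, up to 4 genes by mean CPM of each other list, and called copies. Other named members were chosen after their values were seen, as members of the structural lists. Some genes that the rule names are not reported here.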

Additional observations from a re-analysis of the deposited data

Results flagged for a closer look

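Pseudogene copies entered the comparisons above in sums with their member or among all genes tested. No Cre or crush effect of a copy by itself was given. Of 54 copies tested, 17 rose and 15 fell with Cre over all libraries, shares near those of all genes (28.7% rose and 31.0% fell), so that the count is no result about the copies as a group. Those that rose include Gm10275, a copy of Rpl12 (log2 fold change 1.95 ± 0.22, edgeR adjusted p = 4.4e-06), and Gm11518, a copy of Rpl27 (4.33 ± 0.55, edgeR adjusted p = 7.8e-05), which had 413, 314, 550 and 501 expected counts with Cre (animals 35, 52, 10 and 3) and 21.9, 11.6, 3.51 and 0 without (animals 51, 58, 4 and 6). Those that fell include Gm11380, a copy of Rpl17 (-2.43 ± 0.33, edgeR adjusted p = 2e-05), and Gm10136, a copy of Rpl26 (-3.86 ± 0.67, edgeR adjusted p = 0.00018).

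The pseudogene Rps3a3 held 333 expected counts in Cre uncrushed animal 3, and between 0 and 5.95 in the other 7 libraries. In that library Rps3a2 also held 125, and copies held 41.6% of the combined reads of Rps3a1, against 0.21 to 5.62% elsewhere. This library is 1 of the 2 whose genotype entry contradicted the title. These items were chosen after their values were seen.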

How the results depend on the processing

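No paired analysis was possible because the groups share no replicate number. Members called out of 80 moved as follows. With Cre over all libraries (55), scaling by library size without mitochondrial genes gave 36 (35 higher and 1 lower) and groups by genotype entry 0. In crushed animals (45), groups by genotype entry gave 0 and age as a covariate, which within groups rests on animal 35, gave 17. In uncrushed animals (29), library size alone gave 60, library size without mitochondrial genes 12, no filter on low counts 44, groups by genotype entry 0 and leaving out both contradictory libraries 7. For crush with Cre (0), no filter gave 1 and fitting only the groups compared 6. For crush without Cre (0), DESeq2 gave 2, library size alone 1 and no filter 3, and for the interaction (0) no filter gave 1. By genotype entry 0 of all 15208 genes were called in any comparison. Leaving out 1 library at a time gave 45 to 61 over all libraries, 18 to 64 in crushed animals, 10 to 44 in uncrushed animals (10 without Cre animal 10, 13 without Cre animal 3, 17 without no-Cre animal 6, 44 without no-Cre crushed animal 58), 0 to 0 for crush with Cre, 0 to 9 for crush without Cre (9 without no-Cre animal 58) and 0 to 0 for the interaction. The mean member share of non-mitochondrial counts was 0.50%, and 0.56% with named pseudogenes.

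Log2 fold changes that turned round under library size alone were those of crush with Cre for Rpl22 (0.19) and Rpl22l1 (0.41), of crush without Cre for Rpl22 (0.49), Rpl22l1 (0.12) and Rpl29 (0.52), of the interaction for Rpl22 (-0.31) and of Cre in uncrushed animals for Rps26 (0.21). Groups by genotype entry turned Rpl22l1 for crush with Cre (0.22), and Rps26 (0.81), Rpl14 (-0.33), Rpl6 (-0.071) and Rpl15 (-0.45) for Cre in uncrushed animals. Removing the length trend turned Rpl22l1 for crush with Cre (0.08) and Rpl22 for Cre in uncrushed animals (-0.029). Leaving out a library turned Rpl22 for the interaction (-0.11 without animal 51 and -0.014 without animal 3, in a range up to 0.48), Rpl22l1 for crush with Cre (0.26 without animal 52, in a range from -0.40) and Rps26 for Cre in uncrushed animals (0.19 without no-Cre animal 4, in a range from -0.98). The cause of these changes was not tested. Library size alone moved the all-gene median (log2) to 0.65 for Cre in uncrushed animals and to 0.93 for crush without Cre. The split of all genes called with Cre in uncrushed animals was then 4783 higher and 1480 lower, against 3136 and 3296 under TMM, while with library size without mitochondrial genes it was 2056 and 4210. Relative to the median of all genes, members were higher with Cre by 0.74 to 0.76 in uncrushed animals under these scalings. Depth limits Rps27 most among the members tested, at 0.66 to 3.79 CPM per library, where 3 counts were worth 0.19 to 1.17 CPM.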
